A study of Rattus norvegicus with 5 samples.

Results

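When a coronary artery is closed, the heart muscle behind it dies. Working muscle is then replaced by inflammatory cells and later by scar. RNA taken from the wall of the left ventricle therefore loses transcripts of the lost muscle and vessels and gains those of the invading cells, and it also reflects changes of expression in the cells that survive. In bulk tissue, fewer cells of a type and less RNA per cell cannot be told apart. SNAP (S-nitroso-N-acetylpenicillamine) is a donor of nitric oxide, a gas that relaxes vessels and acts on heart muscle through cyclic GMP.

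The genes described here were lower in the infarcted rat heart than in the normal heart. They were higher again in the heart treated with the SNAP-loaded suture, at most of them near the normal level. In the heart that received SNAP by injection alone they rose by less than a set limit, given below, or not at all. They were chosen by their measured FPKM values (fragments per kilobase of gene, relative to the library's total), taken as log2(FPKM + 1) and abbreviated below as log2 level. A gene was a member when its log2 level in MI was at least 1 below Normal, when that in S-DTMS was at least 1 above MI and less than 1 above Normal, and when that in SNAP was less than 1 above MI. A total of 172 of the 20646 genes in the table met this rule. The values in Normal, MI, SNAP and S-DTMS are thus a description of the choice, while the plain suture (DTMS) took no part in it.

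The 5 groups were male Sprague Dawley (SD) rats of 7-8 weeks. Normal hearts were uninjured, and no sham operation is among the groups. In the other 4 groups the left anterior descending artery was tied, and MI received nothing further. SNAP hearts had the donor injected into the infarct, and DTMS hearts had a hollow hydrogel suture stitched over it and perfused with saline. S-DTMS hearts (spelled S-DTNS in the sample labels) had the same suture perfused with SNAP instead. The methods call the saline group the shank group, which is taken here to be DTMS. They also name a SNAP group as sutured, which is taken here to mean S-DTMS. The paper elsewhere describes the SNAP group as treated with SNAP singly, but the wording leaves this reading unsettled. The methods place the sampling of the left ventricular wall a week after therapy, whereas the labels give 1 month. Each group is represented by 1 library. The study describes biological replicates for its sequencing, whereas the table holds a single column per group, and the sources do not say whether a column pools several rats. The differences below thus carry no replicate error, and p-values were not calculated.

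The files do not pair their Ensembl identifiers with gene names, and the RefSeq table at hand matched 0 of them. The members are therefore described by identifier or by their rank in abundance. Their functions, promoter sequences and place in pathways were not analysed here, and the heart identity of the tissue was not checked by marker genes.

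The libraries held 16731024 to 17379225 fragments, worked out from the steps of the FPKM values. The S-DTMS library stood apart from the others. At a log2 difference of at least 1, the 4 pairs that include it differed at 1448 to 2000 of the 13769 genes that reached an FPKM of 1 in some library, and the 6 other pairs at 555 to 1224. Every member rests on this library by the rule. All genes together were also shifted, with a median difference of -0.12 for MI minus Normal and 0.15 for S-DTMS minus MI, in the same directions as the members.

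The rule narrowed the genes in 4 steps. MI was at least 1 below Normal at 653 genes, which is 4.74% of the 13769. S-DTMS was at least 1 above MI at 278 of these, a step that 8.80% of the 13769 genes passed. Requiring S-DTMS to stay less than 1 above Normal left 228, and requiring SNAP to stay less than 1 above MI left 172. Both shares belong to comparisons that the rule itself used.

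Over the 172 members, the median FPKM was 17.7 in Normal, 6.10 in MI, 6.72 in SNAP, 7.50 in DTMS and 18.8 in S-DTMS. The high levels of Normal and S-DTMS and the low levels of MI and SNAP were largely set by the rule. The members' fragments added up to 2.06% of the library in Normal, 0.693% in MI, 0.881% in SNAP, 0.885% in DTMS and 2.20% in S-DTMS. The plain suture lay on the side of the infarct and of injected SNAP, both in the median and in the sum. Over all 13769 genes the median FPKM moved little, from 8.47 in Normal to 7.44 in MI, 6.57 in SNAP, 7.02 in DTMS and 8.71 in S-DTMS.

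**Figure D1:**
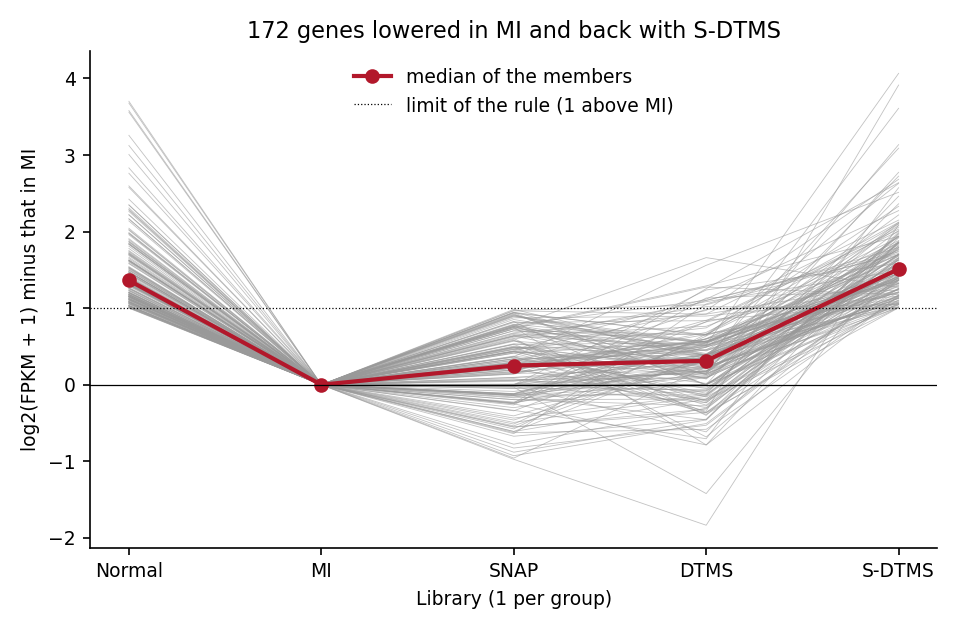
Log2 level of each of the 172 members (grey lines) minus its level in MI, in the 5 libraries on the horizontal axis, with the median in red and the limit of 1 dotted. The median is 1.36 in Normal, 0.25 in SNAP, 0.31 in DTMS and 1.51 in S-DTMS, and single members in DTMS reach from -1.83 to 1.66.

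MI minus Normal had a median of -1.36 on the log2 scale, from -3.70 up to the limit of -1, and the fall was at least 2 at 26 members. The rise from MI to S-DTMS had a median of 1.51, from the limit of 1 up to 4.07, and was at least 2 at 28 members. Both were at least 2 at 13 members. The level in MI was listed at 0 for 13 members. With each value of 0 set to the level that 3 fragments would give, the medians were -1.31 for MI minus Normal and 1.46 for S-DTMS minus MI.

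At most members S-DTMS lay near Normal, which the rule largely set. S-DTMS minus Normal had a median of 0.13, and 114 members lay within 0.5 of Normal. S-DTMS was above Normal at 112 members and below it at 60. The rule capped this value at 1 from above. From below it was held by the required rise of at least 1. At the 146 members with a fall of under 2, it therefore had to lie above -1. In all, 8 members came back only in part, with S-DTMS still at least 1 below Normal. At the lowest of these, S-DTMS minus Normal was -2.40.

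**Figure D2:**
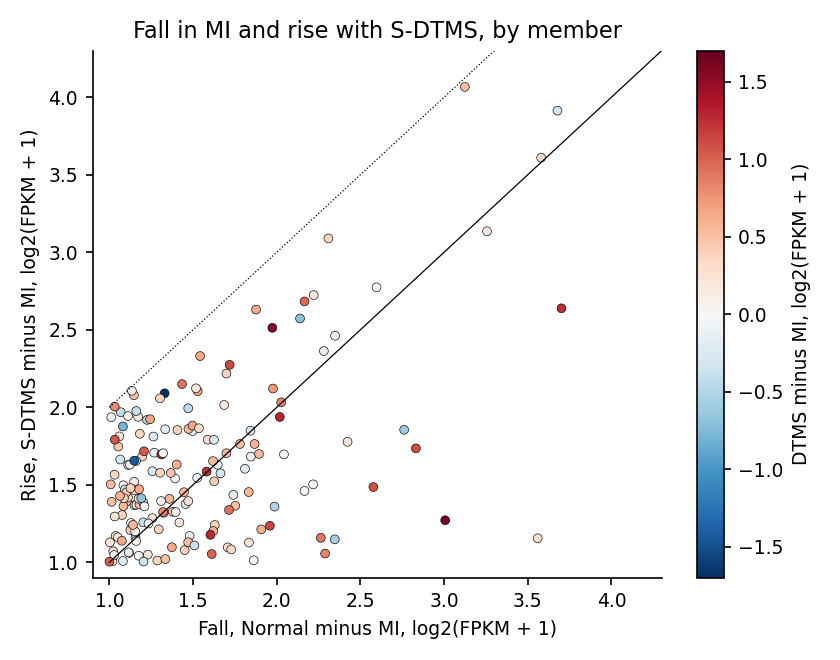
Fall from Normal to MI (horizontal) and rise from MI to S-DTMS (vertical) of each member, both as differences of log2(FPKM + 1), coloured by DTMS minus MI. Points on the solid line returned exactly to Normal, the dotted line is the upper limit of the rule at 1 above Normal, and 8 points lie at least 1 below the solid line.

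The 2 largest rises belonged to ENSRNOG00000025764 and ENSRNOG00000043098, which were among the 10 most abundant members. The FPKM of ENSRNOG00000025764 was 310.7 in Normal, 34.8 in MI, 42.3 in SNAP, 50.3 in DTMS and 598 in S-DTMS. S-DTMS was 17.2-fold MI, with a 95% counting interval from 14.9 to 19.9, and DTMS was 1.45-fold MI, from 1.21 to 1.74. Such intervals, here and below, cover counting error only and not differences between rats. The members shown were picked for their large differences, so the intervals describe depth and give no support to the rises or falls. Normal and S-DTMS stood clear of the 3 other libraries, and S-DTMS exceeded Normal by 0.94 on the log2 scale, close to the upper limit.

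The FPKM of ENSRNOG00000043098 was 626 in Normal, 48.0 in MI, 62.2 in SNAP, 37.6 in DTMS and 738 in S-DTMS. S-DTMS was 15.4-fold MI, with a counting interval from 13.7 to 17.3. In this gene DTMS was the lowest of the 5 libraries, at 0.782-fold MI and with an interval from 0.658 to 0.929.

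ENSRNOG00000036673 had the largest fall, with MI minus Normal at -3.70 on the log2 scale, followed by ENSRNOG00000043098 at -3.68. The FPKM of ENSRNOG00000036673 was 28.0 in Normal, 1.23 in MI, 0.893 in SNAP, 4.33 in DTMS and 12.9 in S-DTMS. It rested on 24 fragments in MI and 557 in Normal. This gene returned only in part, with S-DTMS minus Normal at -1.06, and DTMS was 3.51-fold MI with an interval from 2.21 to 5.78. Both suture libraries thus lay above MI and SNAP, the loaded suture higher than the plain one.

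The most abundant members did not all share a single course. The member of highest level in Normal had an FPKM of 2110 there, 439 in MI, 804 in SNAP, 818 in DTMS and 980 in S-DTMS. All 3 treated libraries lay between MI and Normal, and S-DTMS exceeded DTMS by only 0.26 on the log2 scale. For this gene the rule separated S-DTMS, at 1.16 above MI, from SNAP at 0.87, a difference of 0.28 between these libraries. Its S-DTMS minus MI was 0.986 after scaling by the median of ratios, described below, and 0.999 when library totals omitted the 10 most abundant genes, so that it did not meet the rule on either scale.

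The second had an FPKM of 1723 in Normal, 621 in MI, 389 in SNAP, 454 in DTMS and 2476 in S-DTMS. Injected SNAP and the plain suture both lay below MI here. The third had 1178, 522, 579, 590 and 2004 in the same order of libraries, with SNAP and DTMS close to MI. These 3 members made up 38.6% of the summed FPKM of all members in Normal and 36.9% in S-DTMS, and the 10 most abundant made up 58.0% and 59.6%.

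**Figure D3:**
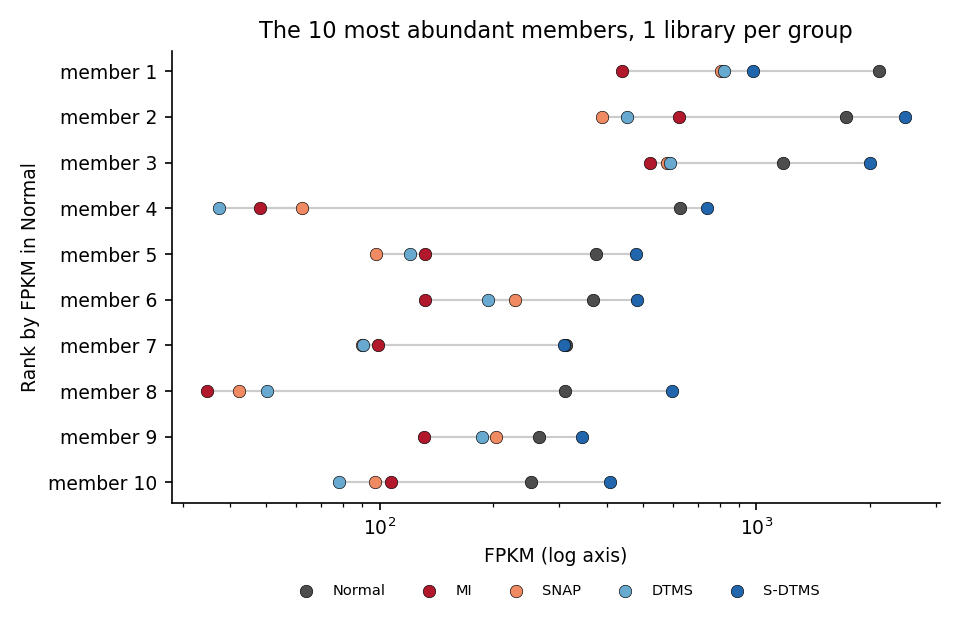
FPKM of the 10 most abundant members (rows, by rank in Normal) in the 5 libraries, on a log axis, 1 point per library. S-DTMS and Normal are the 2 rightmost points in each row, as the rule requires of them against MI and SNAP, and in the top row S-DTMS (980) lies nearer to DTMS (818) than to Normal (2110). In the row of member 9, SNAP (204) lies between MI (131) and Normal (265).

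The plain suture is the only library that did not choose the members. DTMS minus MI had a median of 0.31, with quartiles of -0.01 and 0.56, against a median of -0.06 over the 13769 genes. Since the MI library is shared with the rule, which took genes that were low in it, this difference is not independent of the choice. DTMS was at least 1 above MI at 14 members, which is 8.14% of them against 1.46% of all genes. It was at least 1 below MI at 2 members, 1.16% against 3.19% of all genes. At the other 156 members DTMS lay within 1 of MI, and at 107 within 0.5. Of all 13769 genes, only 640 differed by at least 1 in either direction. Lying within 1 of MI was thus not particular to the members, and the share within 0.5 over all genes is not given.

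Beside Normal, DTMS was at least 1 lower at 100 members, 58.1% of them against 5.46% of all genes. SNAP was at least 1 below Normal at 108 members, 62.8% against 7.10% of all genes. Both comparisons share the Normal library, which the rule also used. The median of DTMS minus Normal was -1.19 over the members and -1.13 over all 653 genes lowered in MI. It was -1.16 over the 375 of these at which S-DTMS was less than 1 above MI. The low level with the plain suture was thus not particular to the members. DTMS lay below both Normal and S-DTMS at 168 of the 172 members, 97.7% against 55.6% of all genes, where the rule had set both of those libraries at least 1 above MI.

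How far these genes were restored only by the loaded suture depended on the limit. DTMS was less than 1 above MI at 158 members, 91.9% of them, a smaller share than the 98.5% of all genes. S-DTMS was at least 1 above DTMS at 117 members, 68.0% of them against 9.51% of all genes, a comparison that shares S-DTMS with the rule. S-DTMS was at least 1 above both SNAP and DTMS at 96 members, 55.8% against 6.09% of all genes. It did so with SNAP and DTMS both within 0.5 of MI at 53, 30.8% against 3.65%. These counts also rest on S-DTMS values that the rule had required to be high.

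**Figure D4:**
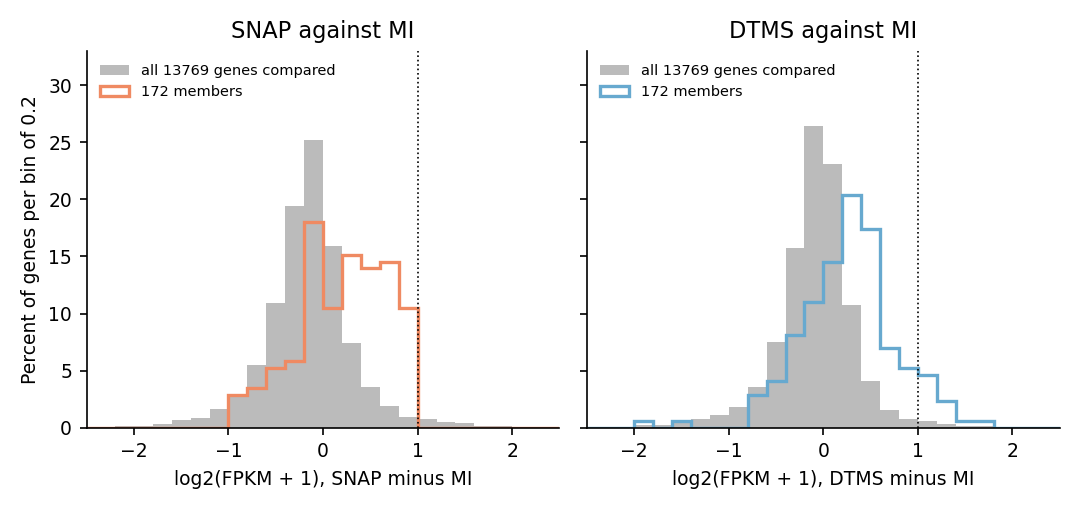
Distribution of SNAP minus MI (left) and DTMS minus MI (right) on log2(FPKM + 1), in percent of genes per bin of 0.2, for all 13769 genes compared (grey) and the 172 members (outline), with the limit of 1 dotted. The SNAP outline ends at 1 by the rule, while the DTMS outline passes it at 14 members.

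SNAP and DTMS lay near each other over the members. DTMS minus SNAP had a median of 0.05, close to the 0.07 of all genes, and DTMS was the higher of the pair at 98 members and SNAP at 71. MI was the lowest library, ties included, at 98 members, SNAP at 45 and DTMS at 29. Both treated libraries were above MI at 91 members and both below it at 24. The rule took genes that were low in MI, and shares over all genes are not given for these counts. They are therefore not read as a pattern of the members. SNAP was at least 0.5 above MI at 51 members, 29.7% of them against 6.50% of all genes. DTMS was so at 55, 32.0% against 5.45%, and both were at 24, 14.0% against 2.20%. Partial rises with the plain suture were thus more frequent among the members than among all genes, in comparisons that share the MI library with the rule.

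Of the 14 members with DTMS at least 1 above MI, 8 had at most 10 fragments in MI and 8 were shorter than 400 bases. With values of 0 set to 3 fragments, 11 passed the limit. Their median FPKM was 5.49 in Normal, 0.661 in MI, 1.34 in SNAP, 2.80 in DTMS and 4.55 in S-DTMS, below the median of all members in each library. The one with the most fragments was the 25th member by rank, with an FPKM of 105.6 in Normal, 16.9 in MI, 26.0 in SNAP, 36.9 in DTMS and 49.0 in S-DTMS, on 630 fragments in MI. The 31st had 77.9, 10.1, 12.6, 22.8 and 35.9 in the same order. In both, the libraries rose in the order MI, SNAP, DTMS, S-DTMS and Normal, and S-DTMS remained at least 1 below Normal.

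Level and depth varied widely among members. The FPKM in Normal was under 5 at 38 members, from 5 to under 50 at 91 and at least 50 at 43. The median of DTMS minus MI was 0.39, 0.32 and 0.23 in these classes, and that of S-DTMS minus MI was 1.49, 1.47 and 1.63. The second set of medians could not fall below 1 by the rule. DTMS at least 1 above MI occurred at 7 of the 38, 5 of the 91 and 2 of the 43 members. The share over all genes, 1.46%, was not split by level, so these counts cannot be set against genes of like level.

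In MI, 45 members had fewer than 20 fragments. The 13 members at 0 in MI had 2 to 27 fragments in Normal and 2 to 32 in S-DTMS, and 3 of them were at 0 in MI, SNAP and DTMS alike. A count of 0 allows up to 3 fragments. The 95% counting interval of the ratio of S-DTMS to MI lay wholly above 1 at 156 members and wholly above 2 at 134, and that of MI to Normal lay wholly below 1 at 157. These intervals were computed on the values that chose the members, so that the counts describe depth and support nothing further, and they cover counting error only and not differences between rats. Among the 100 members with at least 100 fragments in MI, the median was 1.49 for S-DTMS minus MI and 0.32 for DTMS minus MI. DTMS was at least 1 above MI at 3 of these 100, and the share over all genes was not split by depth.

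The members were shorter than other genes. Their median length was 1542 bases, against 2118 for the genes compared, and 37 (21.5%) were shorter than 400 bases, against 7.73% of the genes compared. All 653 genes lowered in MI had 26.8% in this class, so the short length was not particular to the members. Lengths were worked out from the FPKM steps and can be too short where few fragments were seen.

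Among the 653 genes lowered in MI, the members can be set beside the rest. At 375 genes S-DTMS stayed less than 1 above MI, and their median FPKM was 8.72 in Normal, 2.71 in MI, 2.75 in SNAP, 3.25 in DTMS and 2.62 in S-DTMS. These medians stayed low in all infarcted hearts, in S-DTMS because of the split itself, and lay below those of the members in each library. Single genes among the 375 may have risen in SNAP or DTMS. At 56 genes SNAP was also at least 1 above MI, with medians of 9.97, 2.21, 8.56, 6.24 and 11.6 in the same order. Here DTMS minus MI had a median of 0.86, against 0.31 for the members and 0.12 for the 375 genes. Over all 653 genes it was 0.26, close to the value of the members. At 50 genes S-DTMS was at least 1 above Normal, with medians of 16.1, 4.43, 14.0, 9.10 and 50.5. These classes were split by the values themselves, and their differences were not tested.

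**Figure D5:**
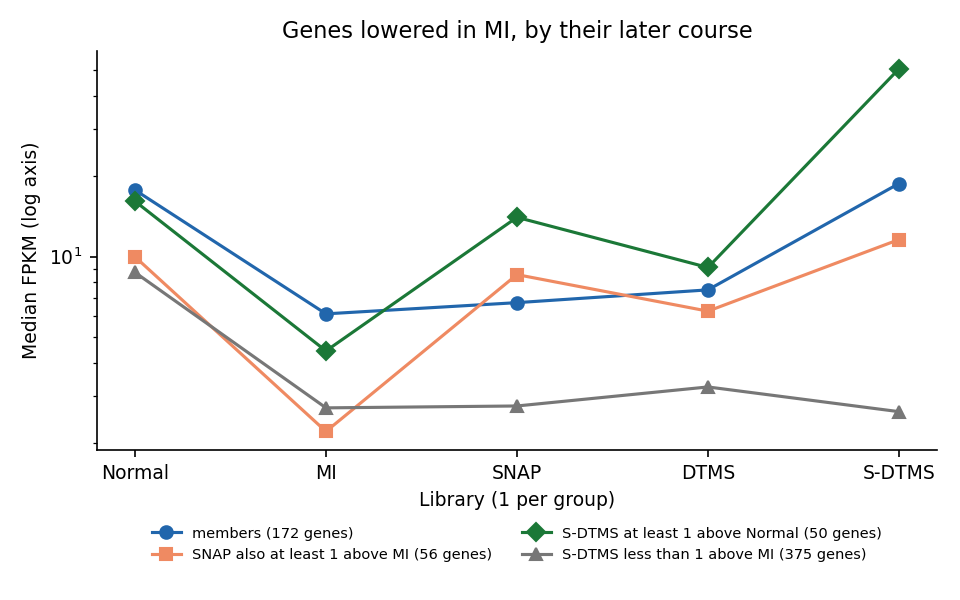
Median FPKM (log axis) in the 5 libraries for the 653 genes lowered in MI, split by the rule into members (172), genes with SNAP also at least 1 above MI (56), genes with S-DTMS at least 1 above Normal (50) and genes with S-DTMS less than 1 above MI (375). The members show 17.7 in Normal, 6.10 in MI and 18.8 in S-DTMS, while the 375 genes remain at 2.62 in S-DTMS.

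Many members lay close to a limit. Within 0.25 of the limit there were 68 members for the fall, 41 for the rise, 26 for SNAP and 17 for the upper bound, and 111 for any of them. For the fall, the 2 members just inside had differences of 1.000 and 1.003, and the 2 genes just outside 0.993 and 0.991. For the rise, the values were 1.004 and 1.005 inside and 0.998 and 0.984 outside. For SNAP minus MI, they were 0.984 and 0.971 inside and 1.000 and 1.015 outside, and for S-DTMS minus Normal 0.972 and 0.972 inside and 1.003 and 1.018 outside.

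The scale bore on the choice. With each library divided by the median of its ratios to the gene-wise means (the median of ratios), 494 genes were lowered in MI and 105 met the rule, of which 104 were among the 172. On that scale the members had a median of -1.24 for MI minus Normal, 1.35 for S-DTMS minus MI, 0.41 for SNAP minus MI and 0.39 for DTMS minus MI. Of the 172 members, 135 kept a fall of at least 1 and 144 a rise of at least 1, while SNAP reached the limit of 1 above MI at 15.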

How the data were processed

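Left ventricular wall of 5 groups of rats was sequenced on an Illumina NovaSeq, with 1 library per group. The authors deposited FPKM values under rat Ensembl identifiers. The submitters' processing notes name HTSeq and mm9, a mouse build. The aligner and annotation are not given in the sources used here.

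Groups were taken from the labels, matched through the sample descriptions to the columns. Fragments were worked out from the FPKM values by the commonest ratio of low values between libraries, then by whole gene lengths, with a tolerance of 0.02 fragments. All 20304 genes above 0 received fragments. Where all fragments of a gene share a divisor, its fragments and length come out too small. The procedure and the rule were tested on simulated data built from the recovered lengths and totals. The simulated falls were deeper than those of most members and in genes of higher level than many of them. The test therefore does not cover members of low level or small fall.

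Differences of log2(FPKM + 1) between libraries were described without a test, since each group has 1 library. Background shares refer to the 13769 genes that reached an FPKM of 1 in any library. Counting intervals are exact 95% intervals of a ratio of fragments, and PCR copies are not independent molecules. The members and lists were chosen with earlier results of these data known. Gene lists and promoter motifs were not analysed here, because 0 identifiers matched a name. The rule for named genes required a symbol and so named none, and 3 identifiers were printed, those of the 2 largest rises and the 2 largest falls. Members given by rank were chosen after their values were seen. Python 3.11.15, NumPy 2.4.6, pandas 2.3.3, SciPy 1.17.1 and Matplotlib 3.10.9 were used.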

Additional observations from a re-analysis of the deposited data

How the results depend on the processing

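The rule was applied anew under 9 alternatives and 1 more added after seeing the data, in which each library was centred on its median change. The number of members was 466 with a pseudocount of 0.1, 105 after scaling by the median of ratios, 271 as TPM, 109 relative to the median change, 44 with a limit of 1.5 for fall and rise, and 13 with a limit of 2. Of the 172 members, 89 met the rule under each of the 4 other scalings and the pseudocount of 0.1. Members with DTMS at least 1 above MI numbered 85 with the pseudocount of 0.1 (18.2%), 27 as TPM, 6 with a limit of 1.5 (13.6%), 1 with a limit of 2, 7 with SNAP less than 0.5 above MI, 7 with an FPKM of at least 5 and 8 with at least 20 fragments, and their share was 13.3% after the median of ratios. Members with DTMS at least 1 below Normal numbered 282, 60, 63, 38 (86.4%) and 13 (100%) with the pseudocount, the median of ratios, relative to the median change, and the limits of 1.5 and 2. Shares over all genes are given for the rule as first applied only, so these counts merely describe the genes chosen each time. The strictest limit itself demanded a fall of at least 2 from Normal, a library that this comparison shares. At the limit of 2, the median of DTMS minus MI was 0.17 and that of DTMS minus Normal -2.47. The medians of DTMS minus MI and of DTMS minus Normal kept their direction, over genes that the rule chose anew each time. Counts and shares have no direction to change. The cause of the changed numbers was not tested, except that stricter limits and filters must leave fewer genes. Of 55 recomputed rises of 11 members followed singly, 53 were at least 1. The rule had chosen these members for a rise of at least 1, so this count is no independent support. The 2 under 1 (0.986 and 0.999) belonged to the most abundant member. Depth limits the 45 members with fewer than 20 fragments in MI. No paired analysis was possible because there is 1 library per group, and no library could be left out of a group.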
